A study of Mus musculus with 8 samples.

Results

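Rik symbols are provisional names that the mouse genome nomenclature gave to full-length cDNA clones of the RIKEN institute. Such a symbol is replaced once a function, a family or a human counterpart gives the gene a name. The count tables keep many older symbols, so the set mixes genes that are still unnamed with genes since renamed, and protein-coding genes with long non-coding RNAs (lncRNAs) and pseudogenes. The well-expressed Rik genes were those rows of the count tables whose symbol ends in Rik and whose level averaged at least 10 CPM (counts scaled by the library total to a common size, the usual normalised read count) across all 8 libraries. The rule took 220 of the 1884 Rik rows, out of 24222 symbols in all. Another 1007 Rik rows had counts but a lower mean, and 657 were at 0 in every library.

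The libraries came from haematopoietic stem cells, the bone marrow cells that renew themselves and give rise to blood, sorted by flow cytometry. The knockout (KO) group was 4 C57BL6 mice that lacked Kdm4a, Kdm4b and Kdm4c, taken 2 weeks after the knockout was induced, and the wild-type (WT) group was 4 C57BL6 control mice, with 1 library per mouse. The 3 deleted genes encode histone demethylases that remove methyl groups from lysines of histone H3 and are known for acting on the mark of silent chromatin. The sources used here give neither the sort markers nor the inducing agent nor the deleted exons.

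Library totals were 5541504 to 14872493 counts in KO and 3594315 to 6044289 in WT. Kdm4c averaged 35.9 ± 10.8 CPM in KO and 115 ± 23.1 in WT, Kdm4a 20.1 ± 3.45 in KO and 36.3 ± 9.64 in WT, and Kdm4b 3.73 ± 1.80 in KO and 10.2 ± 2.46 in WT (SD, n = 4 each). All KO libraries lay below all WT libraries for each of these genes, with a two-sided exact permutation p of 0.0286, the smallest that 4 against 4 libraries can give. By the edgeR test used below, adjusted over all genes tested, p was 2.05e-05 for Kdm4c, 0.132 for Kdm4a and 0.142 for Kdm4b. Only Kdm4c was thus under 0.05 by that test. The cell type was checked with marker lists: the 10 stem cell genes summed to 3167 to 3632 CPM in KO and 3821 to 4143 in WT. Erythroid markers (4 genes) summed to 1235 to 1412 CPM in KO and 2146 to 2446 in WT, with 1 of 3 tested genes lower in KO. Megakaryocyte markers (4 genes) summed to 253 to 267 CPM in KO and 150 to 189 in WT, with 2 of 4 tested genes higher in KO. The 6 lymphoid markers summed to 11.2 to 28.3 CPM in KO and 4.45 to 21.4 in WT, and the 7 neutrophil and monocyte markers found in the tables to 32.7 to 74.1 in KO and 28.1 to 53.8 in WT. The 6 macrophage markers found summed to 18.7 to 31.2 CPM in KO and 14.5 to 29.3 in WT, with 1 of 3 tested genes higher and 1 lower in KO. The part of these marker differences in the values below was not tested, and in sorted bulk cells a shift among cell types and a change of RNA per cell cannot be told apart.

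Past the threshold, an adjusted p under 0.05 over all genes tested, stood 3 Rik rows, of which 1 was a member. Of all 11498 genes tested, 0.583% passed. 4930515G01Rik and C920009B18Rik were named with the rule for their change, so that they passed is a description and not a test. 4930515G01Rik, a lncRNA, met the level rule and was higher in KO. C920009B18Rik, a lncRNA in RefSeq and a transcribed unprocessed pseudogene in GENCODE, averaged 6.13 CPM and stood below the minimum. It is described here because it was named with the rule. 2610524H06Rik, which RefSeq lists as protein coding, averaged 7.27 CPM and was lower in KO. The files and the annotation give none of the 3 a function. Their sequences are shown because these 3 rows have no other name by which to recognise them. For C920009B18Rik and 2610524H06Rik the stretch is the 250 bases before the RefSeq start, read on the gene's strand (RefSeq, GRCm38.p6). For 4930515G01Rik it is the last 250 bases of its GENCODE transcript (GRCm38), since the bases before its start fall in the first exon of another gene. Capitals mark TATAAA, the core of the TATA box, searched on both strands.
4930515G01Rik, 3′ end of the transcript, chr5:114773737-114773986, minus strand: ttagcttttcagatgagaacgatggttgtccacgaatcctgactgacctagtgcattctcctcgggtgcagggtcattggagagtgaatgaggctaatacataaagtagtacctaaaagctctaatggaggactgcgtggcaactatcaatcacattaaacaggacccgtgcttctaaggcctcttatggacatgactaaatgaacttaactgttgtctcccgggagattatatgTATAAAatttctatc
C920009B18Rik, upstream, chr10:22306532-22306781, plus strand: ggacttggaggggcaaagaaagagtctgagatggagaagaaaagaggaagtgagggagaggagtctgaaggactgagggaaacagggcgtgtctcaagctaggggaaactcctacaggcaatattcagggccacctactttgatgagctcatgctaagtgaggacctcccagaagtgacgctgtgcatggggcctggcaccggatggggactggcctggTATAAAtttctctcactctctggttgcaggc
2610524H06Rik, upstream, chr5:114823469-114823718, minus strand: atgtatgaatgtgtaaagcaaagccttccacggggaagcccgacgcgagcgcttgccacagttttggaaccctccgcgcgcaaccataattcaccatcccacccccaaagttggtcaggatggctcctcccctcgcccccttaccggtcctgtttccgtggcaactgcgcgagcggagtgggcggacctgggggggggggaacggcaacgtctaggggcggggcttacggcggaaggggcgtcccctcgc

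The windows before C920009B18Rik and 2610524H06Rik differ in composition. The C920009B18Rik window holds 3 CpG dinucleotides at 53.6% GC, with TATAAA beginning 31 bases before the RefSeq start. GENCODE starts this gene at 22306702, inside the window and ahead of the TATAAA. By that start the TATAAA lies within the gene, and which start is used was not tested. The 2610524H06Rik window holds 22 CpG dinucleotides at 64.4% GC and no TATAAA. The 3′ end of 4930515G01Rik has 6 CpG dinucleotides and TATAAA beginning 15 bases from its end, and no AATAAA, the usual polyadenylation signal, on its own strand. This stretch is the end of a transcript and not a promoter, so its TATAAA is not read as a TATA box. Whether it serves the end of the transcript was not tested. For comparison with the upstream windows, the 250 bases before each start in the RefSeq promoter table were searched on both strands. TATAAA stood in 12.97% of 27025 genes, in 6.20% of 9260 tested genes and in 7.22% of the 180 members covered. Over the same bases the median member had 16 CpG dinucleotides, as did the median tested gene, while lncRNA members had a median of 13.

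4930515G01Rik had 32.4, 26.2, 21.2 and 13.4 CPM in the 4 KO libraries (229, 183, 315 and 74 counts), against 3.05, 6.68, 3.34 and 3.97 CPM in the 4 WT libraries (18, 24, 17 and 24 counts). Every KO library lay above every WT library. The means were 23.3 ± 8.07 CPM in KO and 4.26 ± 1.66 CPM in WT (SD, n = 4 each), and the fitted difference, KO over WT, was a log2 fold change of 2.53 (SE 0.404), or 5.79-fold. Because this gene was singled out for that difference, the value is a description and no p is given. It met the level rule through KO: its WT mean lies below 10 CPM. In all, 9 members reached 10 CPM in KO but not in WT by their group means, 9 in WT but not in KO, and 202 in both.

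C920009B18Rik had 15.4, 6.88, 11.1 and 10.3 CPM in the KO libraries, against 0.508, 0, 3.34 and 1.49 CPM in the WT libraries. The groups did not overlap. The WT library at 0 counts allows a level of up to 0.835 CPM, the value of 3 counts at its total, which covers counting error only. The means were 10.9 ± 3.52 CPM in KO and 1.33 ± 1.47 CPM in WT (SD, n = 4 each), with a log2 fold change of 2.96 (SE 0.585), again given as a description. Leaving out 1 library at a time moved the log2 fold change between 2.65 and 3.81. The low end came without WT replicate 1, where the row no longer passed the threshold, and the high end without WT replicate 3, the WT library with the highest level. GENCODE places it on chromosome 10 at 22306702 to 22321765, plus strand. Its neighbours within 100 kb, H60b, Raet1d and Gm10825, had at most 1 count in any library.

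2610524H06Rik had 1.70, 2.58, 4.03 and 2.71 CPM in the KO libraries, against 14.6, 9.74, 9.44 and 13.4 CPM in the WT libraries. Every KO library lay below every WT library. The means were 2.75 ± 0.963 CPM in KO and 11.8 ± 2.59 CPM in WT (SD, n = 4 each). The log2 fold change was -1.99 (SE 0.417). Adjusted over all genes, edgeR's quasi-likelihood p was 0.0196. Over its 15 alternative fits the adjusted p ran between 2.87e-04 and 0.0872. The call was lost without KO replicate 2 (0.0531), KO replicate 4 (0.0521), WT replicate 1 (0.0872) or WT replicate 4 (0.0660), and with limma voom (0.0570), while the log2 fold change stayed between -2.37 and -1.84.

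**Figure D1:**
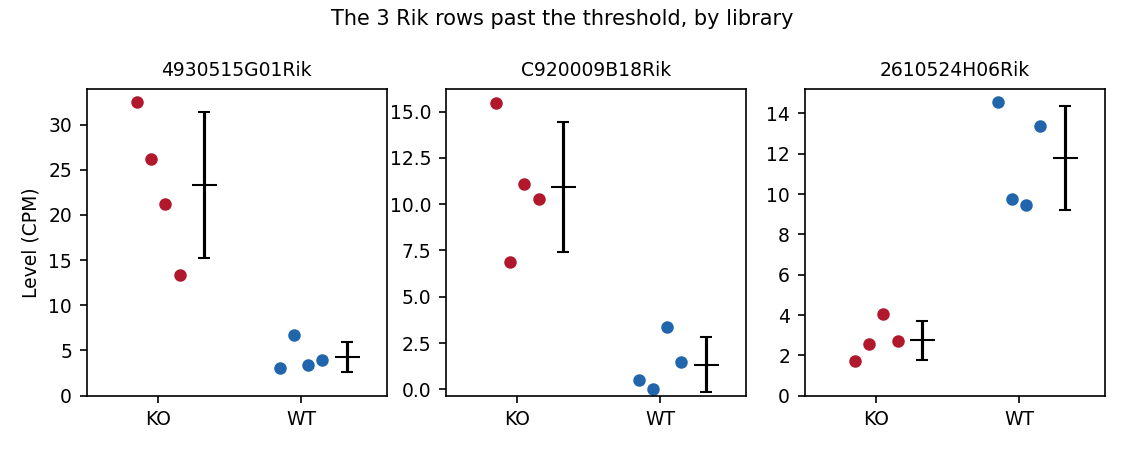
Level in CPM (vertical axes, linear, scales differ) of the 3 Rik rows past the threshold in each KO and WT library. Points are libraries and the bar beside them is the mean ± SD of 4; 4930515G01Rik and C920009B18Rik lie higher in KO, 2610524H06Rik lies lower, and in no panel do the groups overlap.

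4930515G01Rik and 2610524H06Rik lie on the minus strand of chromosome 5, 46954 bases apart. GENCODE (GRCm38) gives 4930515G01Rik as a single exon of 1247 bases at 114773737 to 114774983, classed as antisense. It lies within the span of Git2 on the same strand (114727407 to 114775517 in GENCODE). Git2 encodes a GTPase-activating protein for small GTPases of the Arf family. Of its 17 GENCODE transcripts 16 start downstream of 4930515G01Rik, the nearest 241 bases beyond its 3′ end, and 1 starts upstream of it and runs across it, with no exon bases shared. RefSeq starts Git2 at 114774588, inside 4930515G01Rik, so that exon sharing with Git2 differs by annotation. Ankrd13a encodes a ubiquitin-binding ankyrin repeat protein and starts on the other strand, at 114774677 in GENCODE. By that start 307 bases, or 24.6% of the exon of 4930515G01Rik, lie opposite the 5′ exon sequence of Ankrd13a. RefSeq starts Ankrd13a at 114774948, still inside 4930515G01Rik, so that fewer bases are shared there. Whether the counting used strand is not given in the sources used here, and without it reads in those bases cannot be assigned to either gene. The part of Git2 or Ankrd13a reads in the row's counts was not tested.

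Neither of these flanking genes passed the threshold. Git2 had 206, 206, 239 and 254 CPM in KO, against 168, 143, 177 and 181 CPM in WT, a log2 fold change of 0.44 (SE 0.130, edgeR adjusted p = 0.142). Ankrd13a had 416, 436, 413 and 356 CPM in KO, against 503, 481, 496 and 531 CPM in WT, a log2 fold change of -0.30 (SE 0.104, edgeR adjusted p = 0.229). In both genes the groups did not overlap, since all KO libraries lay above WT for Git2 and below WT for Ankrd13a. 2610524H06Rik spans 114821937 to 114823468 in RefSeq. That stretch falls within the GENCODE span of the member 1500011B03Rik (114808196 to 114823468, same strand), whose RefSeq span ends before it. 1500011B03Rik had 6.94, 9.74, 20.04 and 6.32 CPM in KO, against 6.44, 11.96, 22.8 and 15.2 CPM in WT. The groups overlapped and the log2 fold change was -0.17 (SE 0.395, edgeR adjusted p = 0.928).

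Of the other rows tested within 100 kb of either gene, Oasl2 passed the threshold. It encodes an interferon-induced protein of the oligoadenylate synthetase family and lies 73458 bases from 2610524H06Rik. Oasl2 averaged 504 ± 47.2 CPM in KO and 302 ± 59.8 CPM in WT (SD, n = 4 each), a log2 fold change of 0.75 (SE 0.124, edgeR adjusted p = 0.00178). Gltp (0.09), Tchp (-0.36), Mir6240 (0.53) and Oasl1 (0.22) did not pass, with overlapping groups and log2 fold changes as given.

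**Figure D2:**
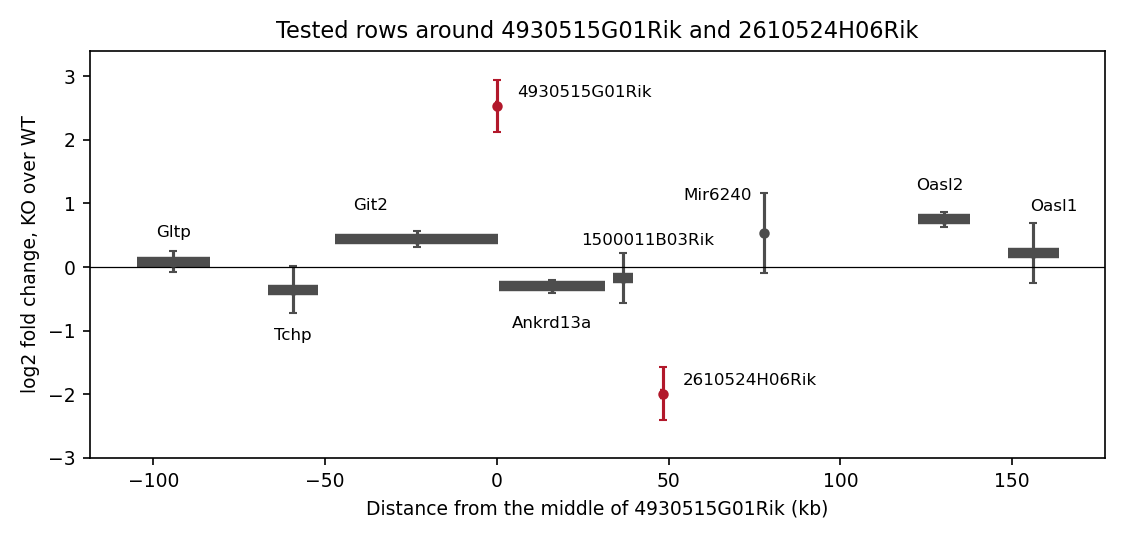
log2 fold change, KO over WT (vertical axis), of the tested rows around 4930515G01Rik and 2610524H06Rik (both red) against distance from the middle of 4930515G01Rik in kb. Horizontal bars span each gene in RefSeq and vertical bars are the SE; 4930515G01Rik stands at 2.53, 2610524H06Rik at -1.99, and the rows between and around them lie between -0.36 and 0.75.

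Over the whole set, 1 of 220 members was higher in KO past the threshold and 0 were lower. The member past it was 4930515G01Rik, named with the rule for its change. It is also in the counts of members higher in KO that follow. The share past the threshold was 0.455% of members, against 0.583% of the 11498 genes tested (0.252% higher and 0.330% lower). At an unadjusted p under 0.05 the count was 24 members, or 10.9%, against 11.2% of all genes tested. Of these, 16 were higher in KO (7.27%, against 5.76% of all genes) and 8 lower (3.64%, against 5.44%). DESeq2 called 3 members higher and 0 lower (1.36%, against 1.34% of all genes tested by DESeq2). Members whose KO and WT libraries did not overlap numbered 11, or 5% of the set, against 5.75% of all genes tested, with 7 higher (3.18% of members, against 2.74% of all genes) and 4 lower (1.82% of members, against 3.01% of all genes). The shares over both directions lay near those of the genes tested as a whole. Of the 8618 genes tested at 10 CPM or more, the level that members had to reach, 0.661% passed. At an unadjusted p under 0.05 stood 11.5% of these 8618 genes, and 6.22% did not overlap. The median log2 fold change of members was 0.04, with 121 above 0 and 99 below, against 0.00 for all genes tested. All 220 members passed the filter on low counts, with at least 10 counts in every library.

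Levels within the set spanned from 10.2 to 377 CPM, with a median of 24.4 CPM and quartiles of 15.6 and 53.1. Most members were low: 87 averaged under 20 CPM, 111 between 20 and 100, and 22 at 100 or more. Together they held 1.02% to 1.09% of the counts of KO libraries and 0.966% to 1.04% of those of WT libraries. Between the libraries of a group, the median member's coefficient of variation was 24.1% in KO and 21.6% in WT, against 18.1% in KO and 18.3% in WT for all genes tested at 10 CPM or more, a difference that was not tested.

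**Figure D3:**
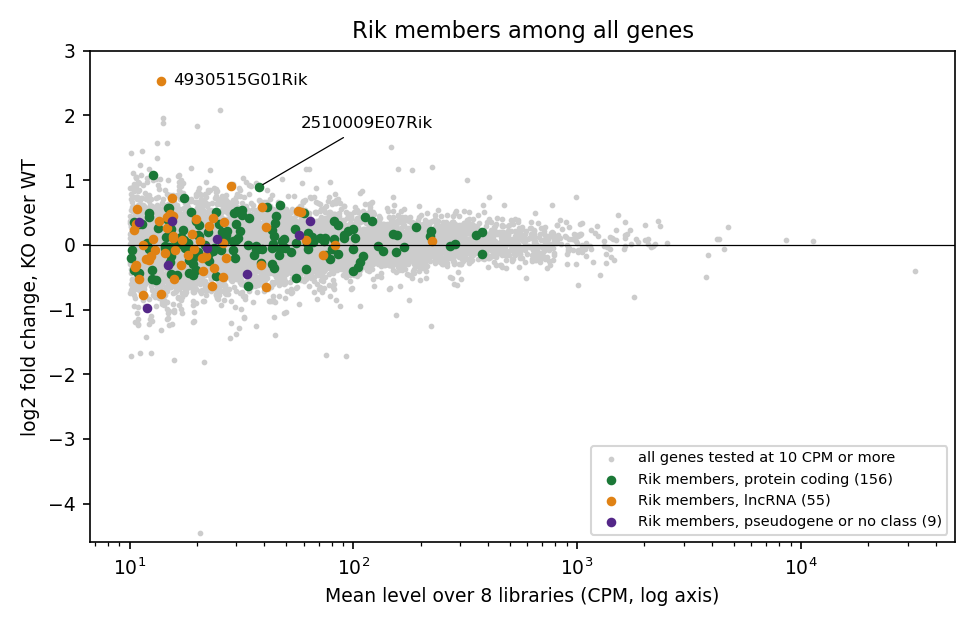
log2 fold change, KO over WT (vertical axis), against the mean level over 8 libraries in CPM (log axis) for the 220 Rik members, coloured by RefSeq class, over all genes tested at 10 CPM or more (grey). 4930515G01Rik stands alone among members at 2.53, 2510009E07Rik lies at 0.90, and most other members lie within the grey band.

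Current RefSeq annotation gave 142 members under their Rik symbol and 74 under a later name, while 4 had no single match. By class, 156 members were protein coding, 55 were lncRNAs and 5 were pseudogenes. The 55 lncRNAs made up most of the 95 lncRNAs among all genes tested at 10 CPM or more. Exons of 78 of the 207 members found in GENCODE, or 37.7%, shared bases with an exon of the opposite strand, against 31.6% of all genes tested at that level. Exon length, merged over all GENCODE transcripts of a gene, was shorter, with a median of 4213 bases against 5039. At an unadjusted p under 0.05 stood 8 of the lncRNA members (14.5%), against 15.8% of all lncRNAs tested at 10 CPM or more, members included. For protein-coding members it was 15 (9.62%), against 11.5% of all protein-coding genes tested at that level. The median size of the log2 fold change was 0.31 for lncRNA members, against 0.29 for all those lncRNAs, and 0.18 for protein-coding members, against 0.17 for all those protein-coding genes. Of the 74 renamed members 31 had a positive log2 fold change (median -0.05), and of the 142 still named Rik 88 had one (median 0.08). The difference between these classes was not tested.

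Just inside the 10 CPM minimum stood 9930104L06Rik and 1110007C09Rik (Card19), both at 10.2 CPM, and just outside it 2610305D13Rik (Zfp979) at 9.91 and 1110059G10Rik at 9.75. None of the 4 passed the threshold, with log2 fold changes of -0.08, -0.21, 0.14 and 0.12 in that order.

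The member nearest to the threshold without passing it was 2510009E07Rik, a protein-coding gene on chromosome 16 with no name of its own. It had 54.5, 41.4, 55.9 and 43.9 CPM in KO, against 21.7, 28.7, 32.6 and 25.1 CPM in WT. Every KO library lay above every WT library. The log2 fold change was 0.90 (SE 0.219, edgeR adjusted p = 0.0576). The gene passed with DESeq2 (adjusted p = 0.00647) and without the filter on low counts (adjusted p = 0.0200 by edgeR), within a range of 0.00647 to 0.173 over 15 alternative fits.

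E330033B04Rik, a lncRNA, had 22.7, 51.0, 37.7 and 36.1 CPM in KO, against 16.4, 21.4, 18.5 and 22.8 CPM in WT. The lowest KO library, replicate 1, lay just under the highest WT library. The log2 fold change was 0.91 (SE 0.264, edgeR adjusted p = 0.135), and the adjusted p ranged between 0.0432 and 0.330 over 15 alternative fits. It passed with DESeq2 (0.0432), without the filter (0.0462) and without KO replicate 1 (0.0445).

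The other members with the largest positive values did not pass and are given as values. 1110004E09Rik is Cfap298, which in humans is needed for the dynein arms of motile cilia. It had 60.1, 70.5, 51.6 and 46.0 CPM in KO, against 36.8, 35.3, 38.5 and 38.1 CPM in WT, with no overlap and a log2 fold change of 0.61 (SE 0.198, edgeR adjusted p = 0.195). Of its exon bases 53.6% lie opposite an exon of the other strand. C230052I12Rik is Faap24, a partner of the Fanconi anaemia core complex in DNA crosslink repair. Faap24 had 25.1, 22.1, 17.5 and 24.5 CPM in KO, against 17.8, 9.46, 14.2 and 9.76 CPM in WT, with the lowest KO library just under the highest WT library (log2 fold change 0.73, SE 0.301, edgeR adjusted p = 0.345). The protein-coding 1810055G02Rik had 12.9, 12.8, 26.0 and 14.6 CPM in KO, against 10.2, 14.2, 3.34 and 7.94 CPM in WT, with overlap (1.07, SE 0.381, edgeR adjusted p = 0.255). It met the level rule through KO, with a WT mean of 8.91 CPM.

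Among the members with the largest negative values, which did not pass either, 3 of 5 were lncRNAs, against 55 of all 220 members. The median size of the log2 fold change was also larger for lncRNA members than for protein-coding ones, as given above. 2900097C17Rik is Norad, an abundant cytoplasmic RNA that binds Pumilio proteins and is known for guarding genome stability. Norad had 30.9, 38.8, 22.9 and 38.1 CPM in KO, against 51.0, 44.2, 52.7 and 48.3 CPM in WT, with every KO library below every WT library. Its log2 fold change was -0.65 (SE 0.217, edgeR adjusted p = 0.219). 9430008C03Rik is Snhg17, a host gene of small nucleolar RNAs. Snhg17 had 12.5, 7.16, 11.03 and 10.1 CPM in KO, against 19.0, 18.9, 13.2 and 19.0 CPM in WT, again without overlap (-0.76, SE 0.308, edgeR adjusted p = 0.337).

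9830147E19Rik is Zfp976, a zinc finger gene. Zfp976 had 26.2, 32.4, 23.4 and 24.2 CPM in KO, against 44.4, 38.7, 35.4 and 44.5 CPM in WT, and the groups did not overlap (log2 fold change -0.64, SE 0.217, edgeR adjusted p = 0.225). Zinc finger genes of this kind have many near copies, and how reads that map to several places were counted is not given in the sources used here. The pseudogene 9030619P08Rik averaged 8.84 ± 6.48 CPM in KO and 14.98 ± 5.17 CPM in WT (SD, n = 4 each), and the lncRNA 9930014A18Rik 8.52 ± 3.88 CPM in KO and 14.5 ± 5.70 CPM in WT. Their log2 fold changes were -0.97 and -0.78, with edgeR adjusted p of 0.360 and 0.444, and their groups overlapped. Both met the level rule through WT, since their KO means lie below 10 CPM.

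**Figure D4:**
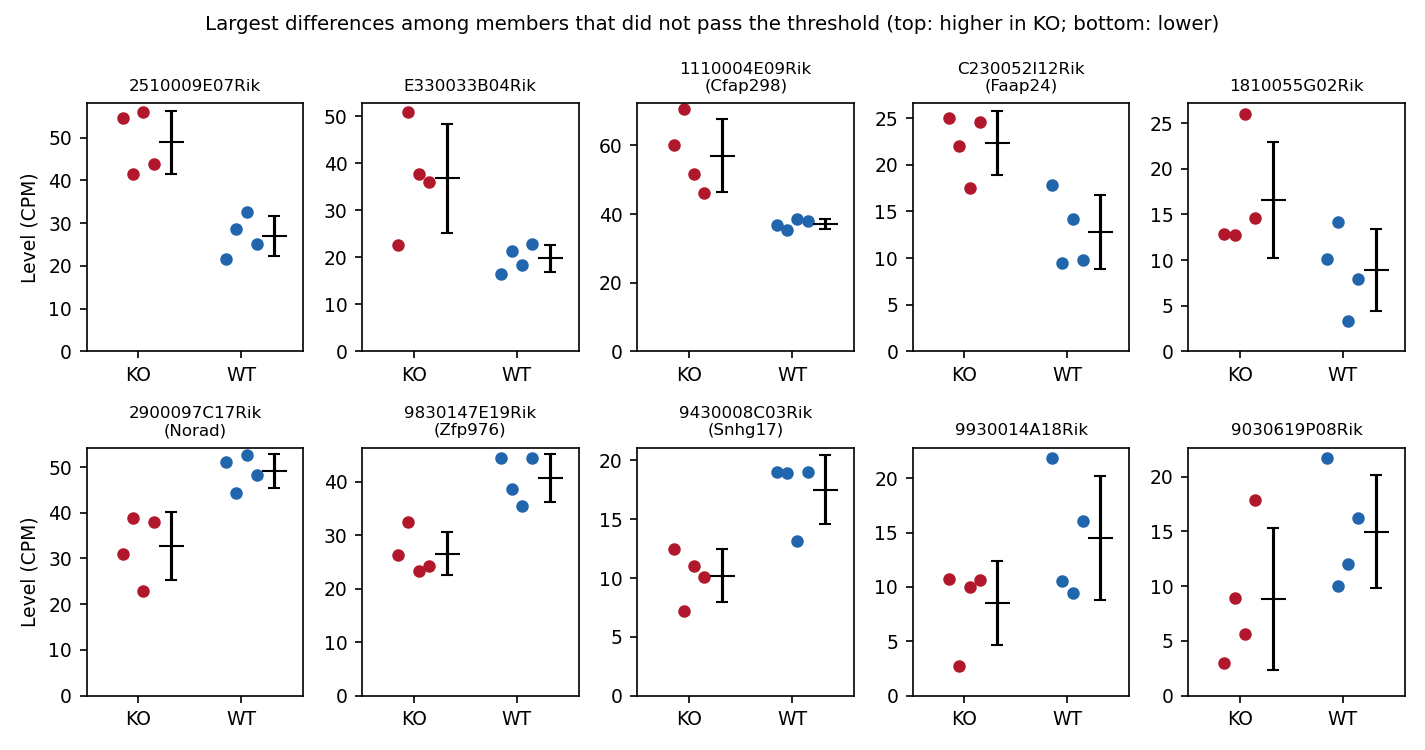
Level in CPM (vertical axes, linear, scales differ) by library for the 5 members with the largest positive (top) and the 5 with the largest negative (bottom) log2 fold changes at an unadjusted p under 0.05 that did not pass the threshold. Points are libraries, bars the mean ± SD of 4; KO and WT do not overlap for 2510009E07Rik, Cfap298, Norad, Zfp976 and Snhg17.

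The members with the most reads differed little. 4932438A13Rik, listed in RefSeq with the synonym Kiaa1109, averaged 358 ± 53.4 CPM in KO and 397 ± 38.2 in WT. 2610507B11Rik (synonym Kiaa0100) averaged 400 ± 31.1 in KO and 352 ± 24.7 in WT. 2810474O19Rik is Resf1, a factor known in mouse embryonic stem cells for silencing of retroelements with the histone methyltransferase Setdb1. Resf1 averaged 370 ± 46.3 CPM in KO and 334 ± 31.0 CPM in WT (SD, n = 4 each, as for the pairs before it). 9930021J03Rik averaged 287 ± 34.0 CPM in KO and 284 ± 19.5 CPM in WT, and B230219D22Rik 268 ± 36.9 CPM in KO and 273 ± 21.8 CPM in WT. In none of these 5 did the log2 fold change pass, with values between -0.14 and 0.19, and the groups overlapped in each.

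A long transcript collects more reads at the same abundance, so levels are also given per kb of exon. Exon length here is that of all GENCODE exons of a gene merged over its transcripts. It can exceed the length of any single transcript, so the order per kb may depend on the transcripts annotated. Among the 207 members with a GENCODE exon length, which leaves out 5930403L14Rik, B230219D22Rik led with 58.2 CPM per kb, ahead of 2410006H16Rik (48.9), 9530068E07Rik (47.7), 0610009B22Rik (44.2) and 2610507B11Rik (42.7). 4932438A13Rik, with 32279 merged exon bases, came to 11.7 CPM per kb. 4930515G01Rik came to 11.05 CPM per kb on its mean over both groups.

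Among the non-coding members, 5930403L14Rik had the most reads of the lncRNAs and was the most uneven of the 6 highest members. It had 213, 291, 98.4 and 325 CPM in KO, against 214, 166, 279 and 219 CPM in WT, a log2 fold change of 0.05 (SE 0.379). KO libraries lay both above and below the whole WT range. The lncRNA 1300002E11Rik averaged 81.6 ± 28.9 CPM in KO and 84.7 ± 23.2 CPM in WT. Oip5os1 (1700020I14Rik), also called Cyrano and known for promoting the decay of a microRNA, averaged 68.1 ± 19.5 CPM in KO and 78.2 ± 9.01 CPM in WT. Of the pseudogenes, 5830417I10Rik averaged 71.4 ± 22.9 CPM in KO and 56.7 ± 8.81 CPM in WT, 4632415L05Rik 25.3 ± 7.34 in KO and 23.6 ± 8.001 in WT, and 1810014B01Rik 21.5 ± 8.04 in KO and 22.7 ± 6.70 in WT (SD, n = 4 each for all 5). None of these passed the threshold.

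The members whose current name or synonym gives a role were grouped by it, which placed 49 members in 6 groups. None of the 49 passed the threshold. Whether any group differed from all genes was not tested. In the mitochondrial group of 10, 9 members had a positive log2 fold change (90%, against 50.2% of all genes tested and 55% of members). The median was 0.22, against 0.00 for all genes tested. The group had 1 member at an unadjusted p under 0.05 (10% of the group, against 11.2% of all genes tested). That one was Atp5mpl (2010107E04Rik), a small subunit of the ATP synthase. It had 34.1, 34.0, 51.8 and 28.3 CPM in KO, against 27.6, 25.6, 25.9 and 27.96 CPM in WT, with no overlap (log2 fold change 0.53, SE 0.236, edgeR adjusted p = 0.386). The 2 with the most reads hardly differed. Prorp (1110008L16Rik), the nuclease that trims mitochondrial tRNA precursors, averaged 105 ± 14.6 CPM in KO and 97.7 ± 14.3 CPM in WT. Timm29 (1810026J23Rik), part of the inner membrane import machinery, averaged 55.5 ± 6.31 CPM in KO and 55.6 ± 8.29 CPM in WT.

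In the group of DNA replication and repair, 5 of 7 members had a positive log2 fold change (71.4%, against the same 50.2%), with a median of 0.22. At an unadjusted p under 0.05 stood 2 of the 7 (28.6%, against the same 11.2%). These were Faap24, given above, and Pclaf (2810417H13Rik), which binds the sliding clamp PCNA and is abundant in dividing cells. Pclaf had 89.5, 92.0, 71.7 and 116 CPM in KO, against 66.1, 79.3, 77.3 and 61.0 CPM in WT, with overlap (0.38, SE 0.180, edgeR adjusted p = 0.439). Hpf1 (2700029M09Rik), which directs PARP enzymes to serine residues, averaged 96.7 ± 19.6 CPM in KO and 117 ± 20.9 CPM in WT. Emsy (2210018M11Rik), a BRCA2-binding protein, averaged 102 ± 15.6 CPM in KO and 88.1 ± 9.29 CPM in WT. Of the 8 members of the centriole, cilium and mitosis group, 3 were positive (37.5%, against 50.2%), with a median of -0.07. Only 1, Cfap298, had an unadjusted p under 0.05 (12.5%, against 11.2%). The best covered member of this group, 2700049A03Rik, listed with the synonym Talpid3 and needed for cilium formation, averaged 84.7 ± 9.93 CPM in KO and 78.6 ± 14.1 CPM in WT.

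The endosome and lysosome group of 9 had 3 members at an unadjusted p under 0.05 (33.3%, against 11.2% of all genes tested), 2 higher and 1 lower, and a median of 0.00. A pair of them belong to the WASH complex, which builds actin on endosomes. Washc5 (E430025E21Rik) had 146, 121, 134 and 116 CPM in KO, against 110, 81.8, 88.3 and 102 CPM in WT, without overlap (log2 fold change 0.43, SE 0.151, edgeR adjusted p = 0.248). Washc4 (A230046K03Rik) had 77.5, 107, 97.4 and 84.3 CPM in KO, against 116, 121, 125 and 106 CPM in WT, with overlap (-0.34, SE 0.151, edgeR adjusted p = 0.386). The values of these 2 subunits thus had opposite signs. Vps35l (9030624J02Rik), of the retriever complex that returns receptors from endosomes, averaged 52.4 ± 5.77 CPM in KO and 38.02 ± 5.998 CPM in WT (0.45, SE 0.202, edgeR adjusted p = 0.387). 2610002M06Rik, with the synonym Chmp1b2 and the most reads of the group, averaged 229 ± 14.9 CPM in KO and 210 ± 9.37 CPM in WT.

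The group of RNA processing and RNA host genes had 10 members, 4 of them positive (40%, against 50.2% of all genes tested), with a median of -0.05. At an unadjusted p under 0.05 stood 2 of the 10, Norad and Snhg17, against 11.2% of all genes tested. Zfas1 (1500012F01Rik), another host gene of small nucleolar RNAs, averaged 62.5 ± 8.35 CPM in KO and 60.7 ± 17.4 CPM in WT. Virma (1110037F02Rik), a subunit of the complex that methylates adenosines of mRNA, averaged 149 ± 6.72 CPM in KO and 161 ± 16.7 CPM in WT. Khdc4 (2810403A07Rik), an RNA-binding protein linked to splicing, had 177, 156, 152 and 153 CPM in KO, against 140, 144, 146 and 139 CPM in WT. Its groups did not overlap although the log2 fold change was small, 0.17 (SE 0.131, edgeR adjusted p = 0.680). In the chromatin and zinc finger group of 5, the 1 member at an unadjusted p under 0.05 was Zfp976 (against 11.2% of all genes tested), and the median was 0.15. Zfp729a (A530054K11Rik) averaged 60.9 ± 5.79 CPM in KO and 64.3 ± 3.01 CPM in WT. Values after ± in these role groups are SD over 4 mice per group.

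**Figure D5:**
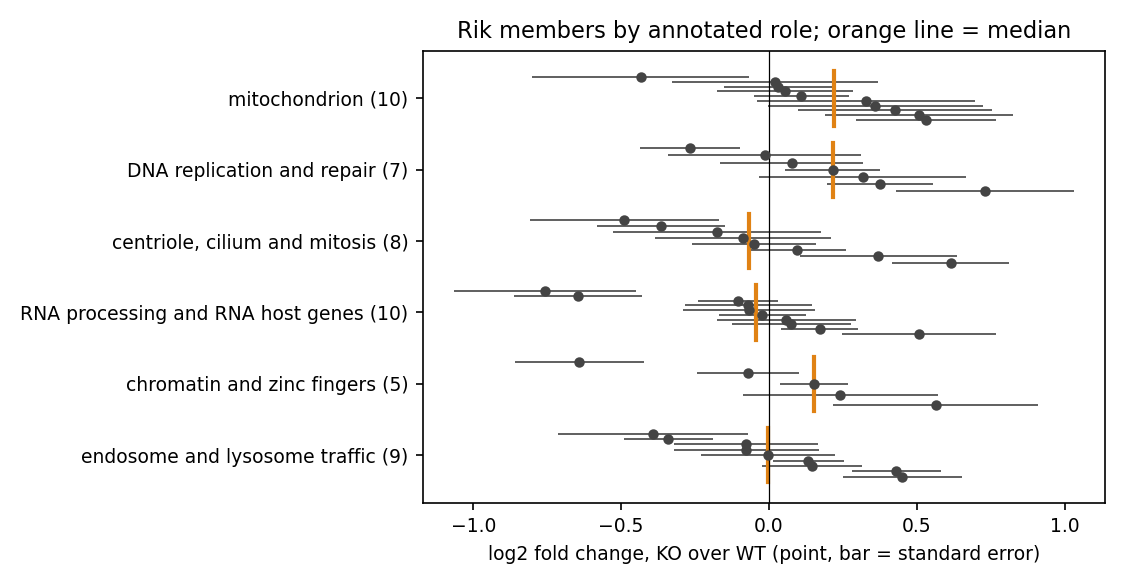
log2 fold change, KO over WT (horizontal axis), of the 49 Rik members with a role, by group (number of members in brackets). Points are genes, bars the SE and orange lines the group medians, which run between -0.07 and 0.22; none of the 49 members passed the threshold.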

How the data were processed

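Per the labels' protocols, total RNA was amplified and made into cDNA with the Nugen Ovation system and sequenced on an Illumina NextSeq; the copies carry no molecular identifier, so counts are of reads. The deposited values were raw counts per gene symbol, which the authors made with STAR 2.4.0d-2 and HTSeq against mm10, per the submitters' processing notes. Neither gene annotation nor strand setting is given in the sources used here.

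The deposited counts went unchanged into edgeR 4.0.16 (R 4.3.3). Genes kept by filterByExpr (minimum count 10, minimum total 15) were scaled by TMM (factors 0.974 to 1.03) and compared by the two-sided quasi-likelihood test with genotype as the only term. P-values were Benjamini-Hochberg adjusted over the 11498 genes tested, with a threshold of 0.05. SE was the log2 fold change over the square root of F. Levels are CPM by library total. Each library was 1 mouse, and no pair of libraries agreed within sampling noise.

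The members and lists were chosen with earlier results of these data known. Named were the given pair, rows past the threshold, the 6 highest members, the 5 largest values each way at an unadjusted p under 0.05, those nearest the minimum, the 3 highest of each non-coding class and the 2 highest of each role group. Atp5mpl, Pclaf, Washc4, Vps35l, Zfas1 and the members given per kb were added after their values were seen. The roles were assigned by hand from RefSeq names and extend the planned groups. Classes, names and sequences are from RefSeq (GRCm38.p6) and positions are 1-based. The procedure was tested on simulated data. Alternatives were DESeq2 1.42.0, limma 3.58.1 voom, other scalings and filters, a replicate block and omission of each library.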

Additional observations from a re-analysis of the deposited data

Results flagged for a closer look

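A total of 76 groups of 4 libraries were searched for a single library far from the other 3, with a gap over 0.829 of the group's range, and 5 were found. Chance gives such a gap in about 1 in 20 groups. 1810055G02Rik had 26.0 CPM in KO replicate 3, against 12.8 to 14.6 in the other KO libraries. 9930014A18Rik had 2.72 CPM in KO replicate 2, against 9.95 to 10.8 in the others. 9930104L06Rik had 20.9 CPM in KO replicate 2, against 5.67 to 7.58 in the others. Khdc4 (2810403A07Rik) had 177 CPM in KO replicate 1, against 152 to 156 in the others. Snhg17 (9430008C03Rik) had 13.2 CPM in WT replicate 3, against 18.9 to 19.0 in the other WT libraries.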

How the results depend on the processing

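The count of members higher in KO was 1 (0.455%, against 0.583% of all genes tested). It was 3 with DESeq2 (1.36%, against 1.34% of all genes), 3 without the filter (1.36%, against 1.08%) and 2 at an adjusted p of 0.1 (0.909%, against 1.09%). With members taken at 5 CPM it was 2. Together with 1 lower, 0.935% of those 321 members passed, against 0.583% of all genes. The rows this setting added were C920009B18Rik and 2610524H06Rik, described above. With members taken at 20 CPM it was 0 of 133, against the same 0.583%. Leaving out 1 library at a time gave 1 to 2, with 2 without KO replicate 1 (0.909%, against 0.598%). The count lower in KO was 0, with 0 to 0 when leaving out a library, and 1 with members at 5 CPM. For 4930515G01Rik, chosen for its change, the log2 fold change ran between 2.36 and 2.75 over 15 alternative fits.

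Same-numbered KO and WT libraries did not deviate together (correlations of -0.09 to -0.01, against -0.09 to 0.14 for other pairs). This gave no sign of pairing by number but cannot exclude it, and the labels do not state any. With the replicate block, 1 member was higher (0.455%, against 0.496% of all genes tested called in either direction) and 0 lower.

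Over 38 named genes and 570 gene-by-alternative values, 528 kept direction and side of the threshold, 6 lost the threshold, 5 gained it and 31, in 10 genes, changed sign. All 10 lay near 0 to begin with, and the cause was not tested. 1300002E11Rik gave 0.011 without the filter, 9930104L06Rik 0.018 with DESeq2 and 0.23 with limma voom, and 5930403L14Rik -0.023 with the replicate block. Leaving out 1 library at a time gave -0.070 to 0.062 for 9930021J03Rik, -0.11 to 0.030 for B230219D22Rik, -0.17 to 0.34 for 5930403L14Rik, -0.61 to 0.39 for 9930104L06Rik, -0.21 to 0.15 for 1300002E11Rik, -0.12 to 0.30 for 4632415L05Rik, -0.31 to 0.19 for 1810014B01Rik, -0.044 to 0.13 for 1810026J23Rik, -0.0058 to 0.37 for 1110059G10Rik and -0.044 to 0.27 for 2610305D13Rik.

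Members near 10 CPM rested on as few as 10 counts in the shallowest WT library.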
